A study of Homo sapiens with 8 samples.

Results

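The coactivators YAP (YAP1) and TAZ (WWTR1), the DNA-binding factors TEAD1, TEAD3 and TEAD4 and the target genes CCN1, CCN2, ANKRD1, AMOTL2 and LATS2 were followed in AB8/13, a human podocyte line that grows or differentiates depending on temperature. These 10 genes were chosen by symbol as the core and the classical targets of the pathway, and each was found as 1 row among the 60564 genes of the count table (Ensembl identifiers ENSG00000137693.14 for YAP1, ENSG00000018408.14 for WWTR1, ENSG00000187079.17 for TEAD1, ENSG00000007866.21 for TEAD3, ENSG00000197905.9 for TEAD4, ENSG00000142871.17 for CCN1, ENSG00000118523.6 for CCN2, ENSG00000148677.6 for ANKRD1, ENSG00000114019.14 for AMOTL2, ENSG00000150457.9 for LATS2). Control cells carried non-targeting shRNA (4 libraries), and ATOH8 knockdown cells shRNA against ATOH8, a basic helix-loop-helix transcription factor (4 libraries). The labels do not say how many shRNAs were used. Effects of the shRNA on other transcripts cannot be told apart from loss of ATOH8. Cells of both groups divided at 33 °C and were then kept for 5 days at 37 °C to differentiate, and both went through lipid transfection. All libraries come from 1 cell line, and the shRNA sequences are not analysed here. The 10 genes and the lists below were chosen with earlier results of these data known.

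YAP and TAZ do not bind DNA themselves but enter the nucleus and bind TEAD factors, which switch on genes of adhesion, matrix and growth. The Hippo kinases MST1 and MST2 (STK4 and STK3) activate LATS1 and LATS2, which phosphorylate YAP and TAZ and so keep them in the cytoplasm or send them for degradation. Cell spreading, a stiff matrix and actin tension favour nuclear YAP and TAZ, and in mice the loss of Yap from podocytes leads to glomerulosclerosis. LATS2 and AMOTL2 are targets that in turn inhibit YAP and TAZ. RNA counts measure neither the proteins, nor their phosphorylation, nor where in the cell they are.

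TEAD factors bind DNA through the core GGAATG, which was searched for on both strands (CATTCC on the other) in promoter windows of RefSeq (GRCh38.p14) that run from 250 bases before to 50 bases after an annotated start. Windows were found for 7 of the 10 genes, 9 windows in all, and not for TEAD1, TEAD4 and CCN1. The core was present in 5 of the 9 windows, which belong to CCN2, ANKRD1, YAP1, AMOTL2 and LATS2, against 14.0% of all 35116 windows. The windows of WWTR1, the other AMOTL2 window and that of TEAD3 do not hold these letters. CCN2 has 3 copies, 169, 104 and 95 bases before the start, and ANKRD1 has 2 copies, 220 and 128 bases before it. YAP1 has 1 copy 162 bases before the start, AMOTL2 has 1 copy on the other strand 69 bases before it, and LATS2 has 1 copy at base 10, with the start as base 1. The 250 bases before the start are shown for CCN2 (chr6:131951373-131951622, minus strand) and ANKRD1 (chr10:90921088-90921337, minus strand), the targets with several copies, and 30 bases around the single copies of YAP1 (chr11:102110273-102110302, plus strand), AMOTL2 (chr3:134374499-134374528, minus strand) and LATS2 (chr13:21061560-21061589, minus strand). All are written 5′ to 3′ in the direction of the gene, and capitals mark the core. The data hold no measurement of TEAD binding, so these matches are a description of the sequences only.
CCN2: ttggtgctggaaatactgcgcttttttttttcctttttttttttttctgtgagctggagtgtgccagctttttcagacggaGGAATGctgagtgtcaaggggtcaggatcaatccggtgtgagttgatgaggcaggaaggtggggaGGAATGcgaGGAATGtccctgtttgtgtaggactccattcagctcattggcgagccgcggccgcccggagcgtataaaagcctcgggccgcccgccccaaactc
ANKRD1: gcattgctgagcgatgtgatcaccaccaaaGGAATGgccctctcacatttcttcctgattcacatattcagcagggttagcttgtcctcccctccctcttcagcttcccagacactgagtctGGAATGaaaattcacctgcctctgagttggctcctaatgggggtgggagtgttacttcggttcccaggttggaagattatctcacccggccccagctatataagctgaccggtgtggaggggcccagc
YAP1: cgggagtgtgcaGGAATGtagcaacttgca
AMOTL2: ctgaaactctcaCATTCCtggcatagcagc
LATS2: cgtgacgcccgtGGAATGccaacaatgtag

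The libraries held 21108695 to 27109043 counts each, of which 4.37% to 5.09% fell on mitochondrial genes. ATOH8 itself had 122 to 175 counts per control library and 51 to 71 after knockdown, with no overlap in level (log2 fold change -1.26, SE 0.127, edgeR adjusted p = 1.78e-09). Of the markers of mature podocytes, NPHS1 and PTPRO were too low to test, so these give the cell type label no support, while WT1 and KIRREL1 had enough counts. The summed level of the 6 podocyte markers tested was lower after knockdown, at 713 to 756 CPM (counts scaled to library size) against 878 to 912 CPM. Of the 6, 2 rose and 3 fell. The sum rested mostly on KIRREL1, the most abundant, which went from 626 ± 18.2 CPM with control shRNA to 489 ± 12.6 CPM after knockdown (SD, n = 4). The lower sum therefore does not describe the 2 that rose. Sums of mesangial and pericyte (546 to 562 against 612 to 649 CPM; 4 of 6 tested rose, 1 fell), endothelial (36.0 to 39.2 against 53.5 to 54.9 CPM; 4 of 6 rose) and leukocyte markers (76.4 to 86.4 against 103 to 113 CPM; 2 of 3 rose) were higher in knockdown libraries. Each of these sums rested mostly on 1 gene, so none describes its list as a whole. These genes were MCAM (513 and 502 CPM, not passed, with CSPG4 going from 22.8 to 83.4 CPM), EHD3 (24.7 to 34.8 CPM) and CD68 (79.3 to 106 CPM). The largest log2 changes among the tested genes of these lists were rises of scarcer genes. They were THY1 (1.69 to 19.1 CPM, log2 3.48), TIE1 (1.05 to 6.77 CPM, log2 2.68) and ITGAM (0.190 to 1.14 CPM, log2 2.56). Sums of parietal epithelial markers were also higher (1866 to 1919 against 2127 to 2217 CPM; 3 of 7 rose, 1 fell), and those of proximal tubule markers overlapped (67.7 to 78.0 against 71.8 to 78.1 CPM; 2 of 3 rose, 1 fell). The falls were those of CLDN2 (parietal epithelial, 7.24 to 1.38 CPM) and AQP1 (proximal tubule, 5.19 to 1.14 CPM). Over all 16884 tested genes 25.2% were called higher and 25.9% lower, so calls are frequent in any list. EMCN (endothelial) and MS4A1 (B cell) were at 0 in every library, and PTPRC, the defining leukocyte gene, stayed under 0.03 CPM on average. The part of these marker shifts in the results below was not tested, and in bulk RNA fewer cells of a type and less RNA per cell cannot be told apart.

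ATOH8 knockdown libraries held more mRNA of both coactivators, while 3 of the 5 target genes did not pass the test and the other two were lower. Of the 10 genes, 3 rose (YAP1, WWTR1 and TEAD3), 2 fell (ANKRD1 and LATS2) and 5 did not pass. In the whole comparison 51.1% of 16884 tested genes passed, 25.2% higher and 25.9% lower, so 5 of 10 is about the share of all genes. The groups did not overlap for 6 of the 10, against 45.6% of all tested genes. The changes were small: the largest was a log2 fold change of 0.38, and the median absolute log2 change of the 10 was 0.12, against 0.19 over all tested genes. All 10 passed the filter on low counts, the scarcest being TEAD4 with at least 213 counts in each library, and all 10 calls were the same in each of 13 alternative fits.

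**Figure D1:**
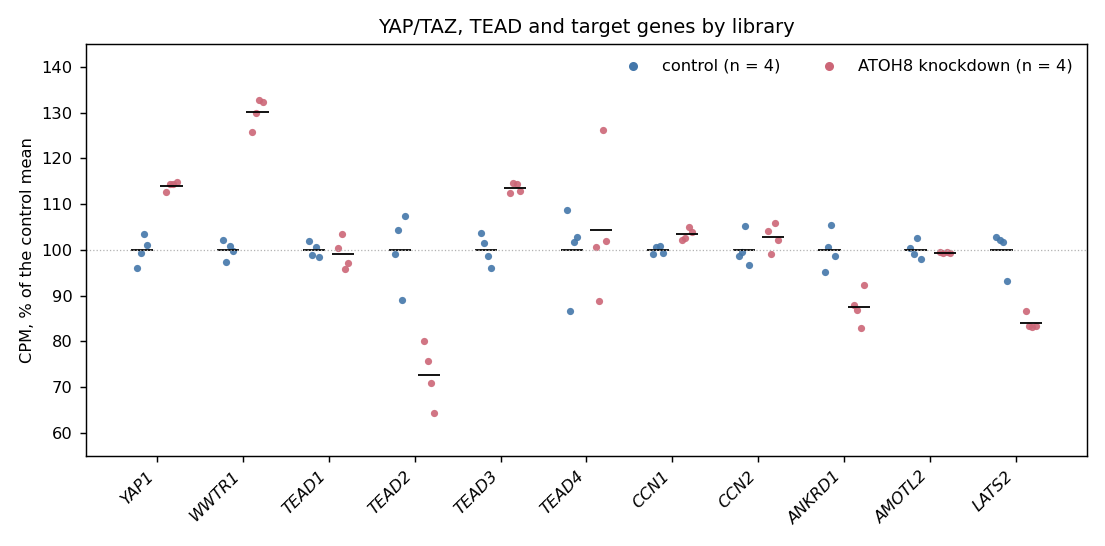
Level of each gene in every library as a percentage of its control mean (y axis, from CPM), with TEAD2 shown beside the 10 genes; points are libraries (4 per group) and bars are group means. YAP1, WWTR1 and TEAD3 lie above every control library in all 4 knockdown libraries, ANKRD1, LATS2 and TEAD2 below, and TEAD1, TEAD4, CCN2 and AMOTL2 overlap. CCN1 also lies above, at 102 to 105% against at most 101% in control, but did not pass the test.

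WWTR1, which encodes TAZ, changed most among the 10. It stood at 198, 189, 196 and 194 CPM in control libraries 1 to 4 and at 244, 252, 258 and 257 CPM in knockdown libraries 1 to 4. The knockdown libraries lay at 126 to 133% of the control mean, and the groups did not overlap. The rise was 30.2% (95% confidence interval 24.6 to 36.1%), a log2 fold change of 0.38 (SE 0.031, edgeR quasi-likelihood test, adjusted p = 2.47e-11). YAP1 was at 242, 250, 261 and 254 CPM under control shRNA and at 283, 288, 288 and 289 CPM in knockdown libraries. Its groups were also apart, with a narrower spread in the knockdown libraries (SD 2.50 CPM) than in control (SD 7.95 CPM). YAP1 rose by 14.1% (interval 9.22 to 19.2%; log2 0.19, SE 0.031, edgeR adjusted p = 6.46e-06).

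Because reads per gene grow with transcript length, levels were compared between genes as CPM per kb of exon. The YAP1 to WWTR1 ratio on this scale was 1.63, 1.77, 1.78 and 1.76 in control libraries and 1.55, 1.52, 1.49 and 1.504 in knockdown libraries, lower in each of the latter than in any control. YAP1 mRNA was thus the more abundant of the pair in every library, by a smaller margin in the knockdown group. This ratio depends on the length taken for WWTR1. With the longest annotated transcript in place of all exons the mean ratio was 1.21 in control and 1.06 in knockdown libraries.

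Among the TEAD factors, TEAD3 rose, TEAD1 and TEAD4 did not pass, and TEAD2, which was not among the 10 genes, fell. TEAD3 went from 43.9, 43.0, 41.7 and 40.6 CPM in control to 47.6, 48.5, 48.4 and 47.7 CPM in knockdown libraries. The groups were apart, and the log2 fold change was 0.18 (SE 0.041, edgeR adjusted p = 0.000397). TEAD1, the most abundant TEAD, was at 253 to 262 CPM under control shRNA and 246 to 266 CPM in knockdown libraries, and its change of -0.80% has a 95% confidence interval of -5.15 to 3.74%. TEAD4 was scarce, with 213 to 289 counts per library in control and 225 to 292 in knockdown, so its interval is wide, from -9.03 to 19.4%. TEAD2 was at 15.97, 16.8, 14.4 and 17.3 CPM under control shRNA and at 12.9, 12.2, 11.4 and 10.3 CPM in knockdown libraries. It fell by 27.5% without overlap (log2 -0.46, SE 0.073, edgeR adjusted p = 4.69e-06).

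The summed TEAD level overlapped between the groups, while the shares of TEAD2 and TEAD3 in it did not. The sum of the 4 TEAD genes was 48.7 ± 0.916 CPM per kb in control and 49.1 ± 0.831 CPM per kb in knockdown libraries (SD, n = 4). TEAD1 made up 51.4 ± 0.618% of it in control and 50.5 ± 1.38% in knockdown libraries, and TEAD4 8.996 ± 0.761% and 9.32 ± 1.43%. The share of TEAD3 was 27.6 to 29.2% in control and 31.6 to 32.7% in knockdown libraries, and that of TEAD2 10.01 to 12.02% and 7.25 to 8.75%. No test was run on these shares.

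**Figure D2:**
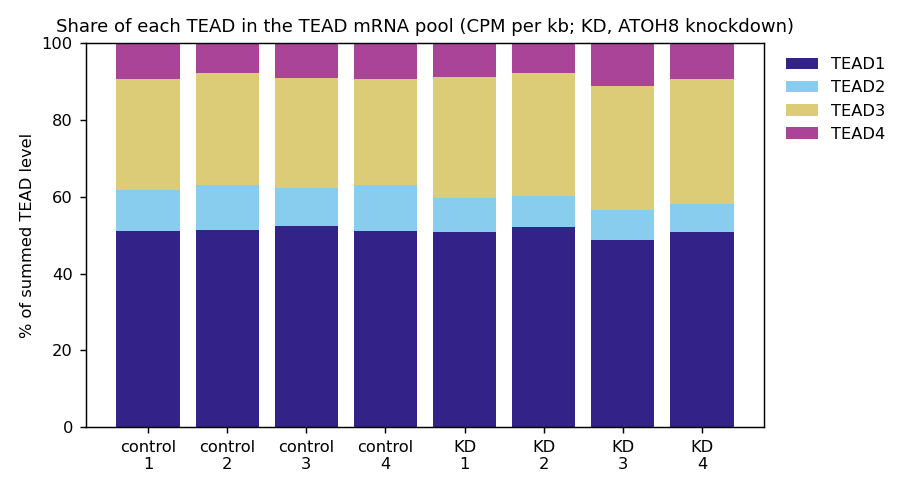
Share of TEAD1 to TEAD4 in the summed TEAD level (y axis, percent of CPM per kb) in each library (x axis; KD, ATOH8 knockdown). The TEAD3 band is wider in every knockdown library and the TEAD2 band is narrower, while TEAD1 stays near 50.5 to 51.4% on average.

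CCN1 and CCN2, the secreted matricellular proteins CYR61 and CTGF and the genes most often used to read YAP and TAZ activity, did not pass the test. CCN1 was at 592, 600, 602 and 593 CPM under control shRNA and at 610, 612, 626 and 620 CPM in knockdown libraries. All 4 knockdown libraries lay above all 4 controls, but the difference was 3.39% (95% confidence interval -0.73 to 7.67%; edgeR adjusted p = 0.167). CCN2 was at 198, 200, 211 and 194 CPM under control shRNA and at 209, 199, 212 and 205 CPM in knockdown libraries. These ranges overlapped, and the interval of the change was -1.87 to 7.76% (edgeR adjusted p = 0.324), so a change of CCN2 as large as that of WWTR1 lies outside it. AMOTL2, an angiomotin that holds YAP at junctions, was at 172 to 180 CPM under control shRNA and 175 CPM in all 4 knockdown libraries, with an interval of -4.80 to 3.76%. The CCN1 to CCN2 ratio per kb was 2.84 ± 0.083 in control and 2.85 ± 0.067 in knockdown libraries (SD, n = 4).

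The targets that fell were ANKRD1 and LATS2. ANKRD1, a nuclear and sarcomeric ankyrin repeat protein induced by stretch, was at 144, 152, 159 and 149 CPM under control shRNA and at 133, 131, 125 and 140 CPM in knockdown libraries. The highest knockdown library stood below the lowest control, and ANKRD1 fell by 0.19 on the log2 scale (SE 0.037, edgeR adjusted p = 7.03e-05). LATS2, the kinase that phosphorylates YAP and TAZ, was at 104, 103, 103 and 94.0 CPM under control shRNA and at 87.3, 83.9, 83.8 and 83.9 CPM in knockdown libraries. Again the groups did not overlap, and LATS2 fell by 0.25 on the log2 scale (SE 0.036, edgeR adjusted p = 1.31e-06), a change of -15.9%. Its paralogue LATS1 was at 44.9 ± 0.973 CPM under control shRNA and 42.9 ± 2.67 CPM in knockdown libraries (SD, n = 4), with groups that overlapped and no call (edgeR adjusted p = 0.232).

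Ordered by level per kb, the 10 genes and TEAD2 ran in control libraries from CCN1 (243 ± 2.10 CPM per kb) through CCN2 (85.8 ± 3.14), ANKRD1 (76.4 ± 3.23), YAP1 (40.0 ± 1.26), AMOTL2 (29.4 ± 0.562), TEAD1 (25.02 ± 0.407), WWTR1 (23.1 ± 0.468), LATS2 (18.1 ± 0.818) and TEAD3 (13.9 ± 0.470) to TEAD2 (5.41 ± 0.434) and TEAD4 (4.38 ± 0.413; SD, n = 4). No neighbours in this order overlapped between libraries in control, although the lowest TEAD2 library (4.82) and the highest TEAD4 library (4.77) nearly met. In knockdown libraries WWTR1 (30.0 ± 0.745 CPM per kb) moved past TEAD1 (24.8 ± 0.871) and overlapped with AMOTL2 (29.2 ± 0.038). LATS2 (15.2 ± 0.311) and TEAD3 (15.8 ± 0.157) overlapped, as did TEAD2 (3.93 ± 0.368) and TEAD4 (4.57 ± 0.689). With the longest transcript as length, WWTR1 (38.6 CPM per kb) already stood beside AMOTL2 (38.9) and above TEAD1 (30.3) in control.

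**Figure D3:**
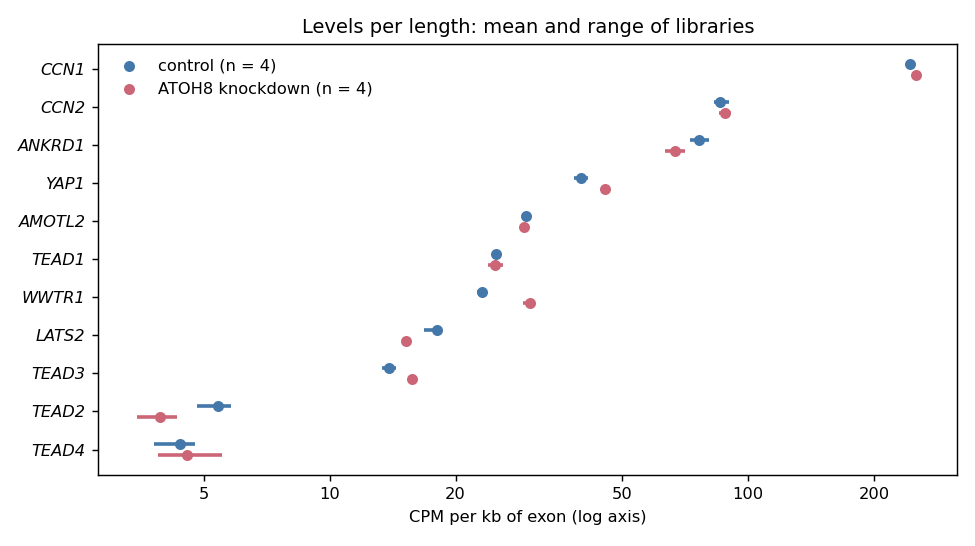
Level per kb of exon (x axis, CPM per kb, log axis) of the 10 genes and TEAD2; points are group means and lines span the 4 libraries of a group. CCN1 is highest at 243 CPM per kb in control, TEAD2 and TEAD4 are lowest, and WWTR1 shifts from 23.1 to 30.0 CPM per kb.

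A wider list of 22 YAP and TAZ target genes, which includes the 5 targets above, moved in both directions. Rises numbered 9 of the 21 tested, falls 7, and 5 did not pass, so that 76.2% were called against 51.1% of all tested genes (25.2% higher, 25.9% lower). The median log2 change was 0.04 against -0.00072 over all tested genes. No share was taken among genes of like abundance, here or for the lists below. All lists were chosen with earlier results of these data known, so the shares over all tested genes are no neutral yardstick. FOXF2 was too low to test. Outside the 10 genes 16 targets were tested, with 9 rises, 5 falls and a median of 0.15. By adjusted p the clearest rises were CCDC80, a secreted matrix protein (425 ± 8.59 to 702 ± 20.5 CPM, log2 0.73, SE 0.031), GADD45A, a growth arrest and DNA damage gene (115 ± 1.53 to 161 ± 7.5 CPM, log2 0.48, SE 0.035), and the receptor tyrosine kinase AXL (448 ± 10.7 to 605 ± 19.9 CPM; SD, n = 4). Among the falls these were IGFBP3, which binds insulin-like growth factors (529 ± 7.79 to 330 ± 13.9 CPM, log2 -0.68, SE 0.032), the ligand gene TGFB2 (138 ± 3.07 to 92.9 ± 3.43 CPM) and NT5E, the ecto-5′-nucleotidase CD73 (382 ± 8.80 to 272 ± 21.02 CPM; SD, n = 4). The libraries of the groups did not overlap for these 6 genes, nor for 45.6% of all tested genes. The 6 were chosen by adjusted p, so their lack of overlap is no further result. The 5 targets above had log2 changes between -0.25 and 0.05, a range that also holds other targets of the list such as ASAP1 (0.03) and FJX1 (-0.24), named after their values were seen.

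**Figure D4:**
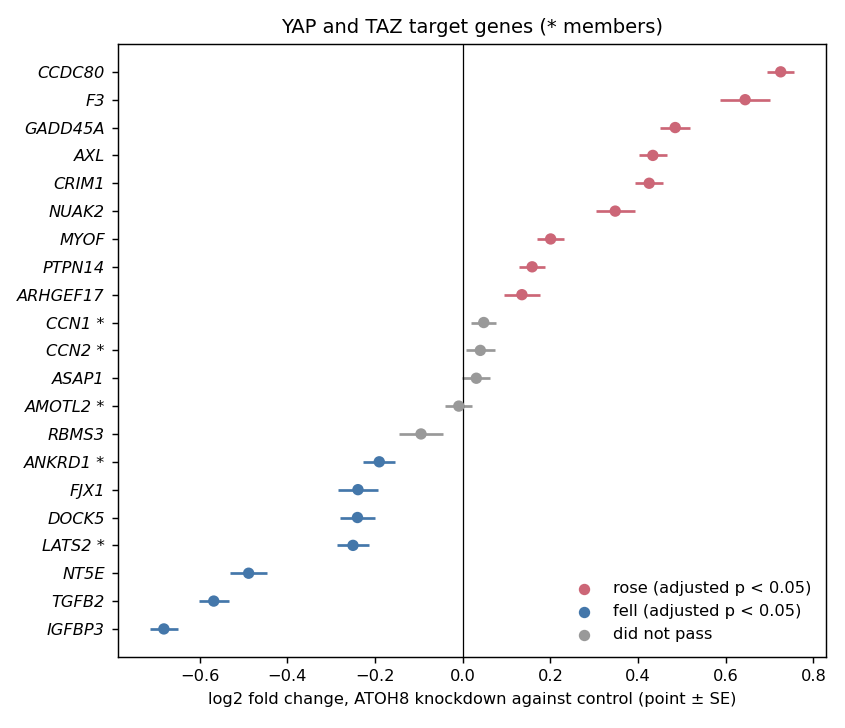
Log2 fold change of ATOH8 knockdown against control (x axis) for the 21 tested YAP and TAZ target genes, as point ± SE from edgeR, coloured by whether the gene rose, fell or did not pass; asterisks mark genes among the 10. CCN1, CCN2 and AMOTL2 lie near 0, between CCDC80 at 0.73 and IGFBP3 at -0.68.

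Of the upstream Hippo kinases and their adaptors, 2 of 11 tested were called higher and 3 lower (median log2 -0.03). The 45.5% called lies near the 51.1% of all tested genes. Beside LATS2 the falls were those of TAOK1, a kinase that activates MST and LATS kinases (235 ± 5.68 to 209 ± 4.93 CPM, log2 -0.16, SE 0.031), and STK3, encoding MST2 (24.6 ± 1.24 to 22.3 ± 1.73 CPM; SD, n = 4). The STK3 groups overlapped, and the call (log2 -0.14, SE 0.057, edgeR adjusted p = 0.0483) was lost in 9 of 13 alternative fits (highest adjusted p = 0.164). TAOK2 rose (log2 0.16, SE 0.037), and so did TAOK3 (log2 0.13, SE 0.048), with overlapping groups and a call that did not hold without control replicate 3 (adjusted p = 0.0962), knockdown replicate 1 (0.0843) or knockdown replicate 4 (0.0762). The 6 that did not pass included STK4, SAV1, LATS1, MOB1A and MOB1B, the remaining core of the cascade, and MAP4K4.

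Scaffolds and membrane regulators that feed into Hippo signalling were mostly higher: 10 of 15 tested were called higher and 2 lower (median log2 0.16), beside 25.2% higher and 25.9% lower of all tested genes. This list was chosen with earlier results of these data known, so its excess of rises is no independent finding. DCHS1, a giant protocadherin and the ligand of FAT4, was at 2.02, 2.33, 2.19 and 1.63 CPM under control shRNA and at 7.22, 7.58, 7.10 and 5.49 CPM in knockdown libraries. The groups were far apart (log2 1.75, SE 0.132, edgeR adjusted p = 5.07e-12), although counts were few, 42 to 62 per control library. FAT4 itself rose from 17.7 ± 0.256 to 21.7 ± 0.946 CPM (log2 0.30, SE 0.054), and AMOTL1, an angiomotin like AMOTL2, from 146 ± 5.29 to 194 ± 4.60 CPM (SD, n = 4; log2 0.41, SE 0.033). FRMD6, also called Willin, fell (274 ± 6.32 to 232 ± 9.18 CPM, log2 -0.24, SE 0.033), as did the polarity protein PATJ (log2 -0.13, SE 0.050), whose groups overlapped. The PATJ call was lost with DESeq2 (adjusted p = 0.0833) and without control replicate 3 (0.118), control replicate 4 (0.0753) or knockdown replicate 3 (0.129).

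Phosphatases, a phosphatase partner and parts of the STRIPAK complex, listed together as antagonists of Hippo signalling, went both ways. Of the 10 tested, 3 rose and 4 fell (median log2 -0.03), against 25.2% and 25.9% of all tested genes. STRN4 (log2 0.25, SE 0.035), SIKE1 (log2 0.22, SE 0.036) and STRN3 (log2 0.14, SE 0.047) rose, the last with overlapping groups and a call lost without knockdown replicate 2 (adjusted p = 0.101). TP53BP2, encoding the YAP partner ASPP2, fell from 170 ± 1.58 to 142 ± 3.57 CPM (SD, n = 4; log2 -0.27, SE 0.031), and the catalytic subunits PPP1CA (log2 -0.19, SE 0.035) and PPP2CA (log2 -0.18, SE 0.032) fell. Of the TEAD and VGLL genes together, 1 of 6 tested rose and 1 fell, 33.3% called against 51.1% of all tested genes. VGLL4, a cofactor that competes with YAP for TEAD, was at 68.9 ± 1.79 CPM under control shRNA and 69.8 ± 2.32 CPM in knockdown libraries (edgeR adjusted p = 0.655), and VGLL3 at 16.8 ± 1.02 and 16.4 ± 0.244 CPM (SD, n = 4; adjusted p = 0.726).

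**Figure D5:**
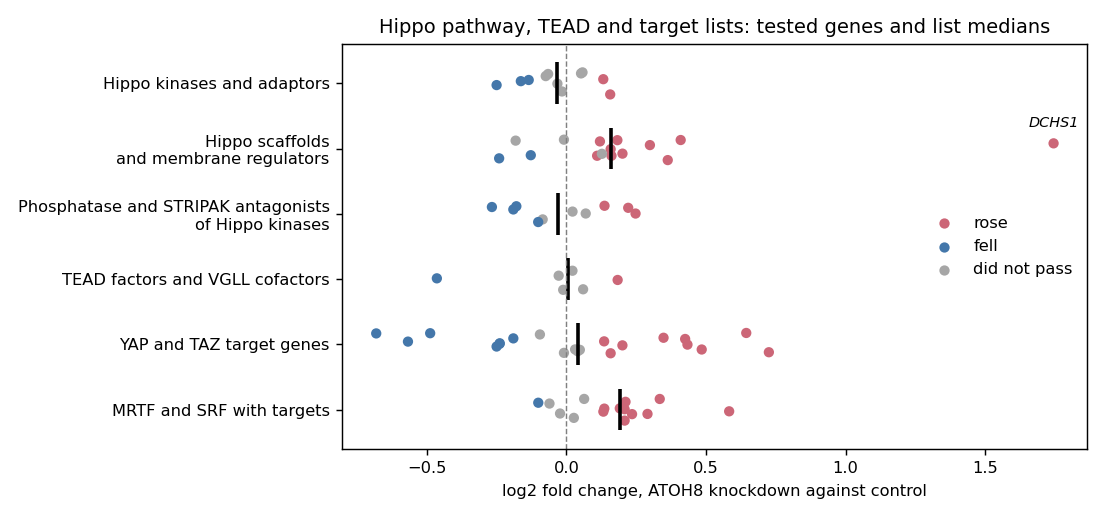
Log2 fold change of ATOH8 knockdown against control (x axis) for tested genes of the Hippo, TEAD, target and SRF lists (y axis); points are genes, black bars list medians and the dashed line the median of all tested genes. The scaffold list and the SRF list lie mostly to the right, with medians of 0.16 and 0.19, and DCHS1 stands alone at 1.75. All lists were chosen with earlier results of these data known.

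ANKRD1, CCN1 and CCN2 are also induced through SRF and its coactivators MRTFA and MRTFB, which respond to actin. In that list 10 of 15 tested genes were called higher and 1 lower (median log2 0.19), where all tested genes gave 25.2% and 25.9%. That list too was chosen with earlier results of these data known, so the excess is no independent finding. The smooth muscle actin gene ACTA2 rose from 57.1 ± 3.13 to 71.9 ± 0.427 CPM (log2 0.33, SE 0.039), the actin-binding TAGLN from 385 ± 16.03 to 471 ± 25.3 CPM (log2 0.29, SE 0.037) and the calponin CNN2 from 367 ± 5.29 to 425 ± 16.6 CPM (SD, n = 4; log2 0.21, SE 0.032). ACTB was the one to fall (log2 -0.10, SE 0.033, edgeR adjusted p = 0.0126), and this call was lost without knockdown replicate 2 (adjusted p = 0.0791). ACTB has many processed copies that can share its reads, and their part in its counts was not tested. SRF itself did not pass (67.9 ± 3.06 and 69.1 ± 2.47 CPM; SD, n = 4). ANKRD1 fell where 10 of these 15 genes rose, a contrast that was not itself tested.

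The relatives of the targets were few. Of the 6 CCN genes, CCN1, CCN2 and CCN3 had enough counts, and 0 passed, against 51.1% of all tested genes. Their edgeR adjusted p ran from 0.167 to 0.324, with 0 at an unadjusted p under 0.05, and 0 passed with DESeq2. CCN4 was left out by the filter, with 2 to 3 counts per control library and 8 to 16 per knockdown library. Of the ANKRD1 relatives, ANKRD23 did not pass (0.765 ± 0.309 and 0.772 ± 0.116 CPM; SD, n = 4), and ANKRD2 was too low to test, with 10 to 22 counts per control library and 5 to 10 per knockdown library. CCN4 and ANKRD2 are named here after their values were seen.

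Genes whose log2 CPM followed CCN2 most closely over the 8 libraries, among 6429 genes of at least 5 log2 CPM, were ATG7 (Pearson r = 0.95), CAPN15 (0.95) and MRPS11 (0.93), and for YAP1 they were PCNX4 (0.99), CAMK2D (0.99) and TSPAN13 (0.99). With each group's mean removed, MRPS11 (0.98), TPD52L1 (0.97) and ZNF629 (0.97) followed CCN2, and TSPAN13 (0.97), PAWR (0.97) and BECN1 (0.96) followed YAP1. These are the highest of 6429 correlations over 8 libraries that share depth and group, given as a description.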

How the data were processed

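Polyadenylated RNA was sequenced from 8 libraries, 4 per group, from RNA of integrity above 7.0, per the labels' protocols. The deposited table holds raw read counts per gene with versioned Ensembl identifiers. Per the submitters' processing notes, FastQC, STAR, featureCounts, DESeq2 and hg19 were named. For versions, annotation, strand setting and multiply mapped reads nothing is stated: they are not given in the sources used. Of 60609 rows, 1 with a missing cell and 44 Y copies of pseudoautosomal genes, all without counts, were left out. Symbols matched 60295 of 60564 identifiers.

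Counts were filtered with filterByExpr, scaled by TMM and tested with edgeR's quasi-likelihood test (edgeR 4.0.16, limma 3.58.1, R 4.3.3), with Benjamini-Hochberg adjustment over all 16884 genes tested and 0.05 as the threshold. SE came from the F statistic, and 95% intervals from the SE and the moderated degrees of freedom. CPM used TMM library sizes. Exon lengths came from GENCODE release 29 (GRCh38), which may differ from the annotation used for counting. Antisense or overlapping genes shared exon bases with YAP1, WWTR1, CCN2 and AMOTL2, but held 1 to 63 counts in all libraries together. Within-group pairs differed by a chi-square per gene of at least 1.95, so no library looked deposited more than once. The labels do not say whether replicates were separate cultures, so the p-values rest only on library-to-library spread, possibly technical. The genes followed and the lists were chosen with earlier results of these data known. Named genes are ATOH8, the 10 genes, TEAD2, up to 3 rises and 3 falls per list by adjusted p, and the closest correlates of CCN2 and YAP1. Protein comparisons were not analysed here, and some podocyte markers are not reported here. Alternatives were DESeq2 size factors, DESeq2 1.42.0, no filter, at least 1 CPM in 4 libraries, a replicate block, leaving out each library, another transcript length and a longer motif.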

Additional observations from a re-analysis of the deposited data

Results flagged for a closer look

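Of 88 groups of 4 libraries examined for named genes and ratios, 9 held a library that stood far from the other three, where chance alone gives about 1 in 20. LATS2 in control replicate 4 was at 94.0 CPM against 103 to 104 CPM in the others, and in knockdown replicate 1 at 87.3 CPM against 83.8 to 83.9 CPM. Both LATS2 libraries lie toward the other group, and LATS2 stayed lower in knockdown libraries without either (log2 -0.28 to -0.24 over the alternatives). The YAP1 to WWTR1 ratio was 1.63 in control replicate 1 against 1.76 to 1.78, still above all knockdown libraries. TEAD4 made up 7.87% of the TEAD sum in control replicate 2 against 9.26 to 9.52%, and the TEAD sum was 50.1 CPM per kb in control replicate 1 against 48.1 to 48.3. STK3 was at 26.4 CPM in control replicate 3 against 23.8 to 24.1 CPM, FRMD6 at 246 CPM in knockdown replicate 4 against 227 to 228 CPM, PATJ at 26.8 CPM in knockdown replicate 3 against 29.3 to 29.6 CPM and CCDC80 at 671 CPM in knockdown replicate 4 against 709 to 714 CPM. The cause was not tested.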

How the results depend on the processing

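The 5 genes called among the 10 kept call and direction under all 13 alternative fits, with log2 changes of 0.17 to 0.21 for YAP1, 0.37 to 0.40 for WWTR1, 0.16 to 0.20 for TEAD3, -0.22 to -0.17 for ANKRD1 and -0.28 to -0.24 for LATS2. The uncalled TEAD1 (-0.03 to 0.0042), TEAD4 (-0.04 to 0.13) and AMOTL2 (-0.02 to 0.0010) changed sign among alternatives. CCN1 came nearest to a call at adjusted p = 0.0634. With the replicate block 4336 genes were higher and 4466 lower, and 3 and 2 of the 10 genes. Same-numbered libraries of the groups correlated at 0.09 to 0.21 in their deviations, and 6 of 8 correlated best with their own number, a hint of pairing from the data. The numbers were not taken as pairs because the labels state no shared batch or day. A bound of 0.1 on the correlations was not part of the planned design, and 1 of the 4, at 0.09, lay just under it. Pairing therefore remains possible. With the block 11 scaffold genes were higher and 3 lower. By DESeq2 1 scaffold gene fell. Without a filter 1 CCN gene (CCN4) rose and 2 genes of the ANKRD1 family (ANKRD1 and ANKRD2) fell. Leaving out 1 library gave 1 to 2 rising kinases, 1 to 3 falling scaffold genes, 0 to 1 rising CCN genes, 1 to 2 falling genes of the ANKRD1 family and 0 to 2 falling SRF genes. These fits tested 17092 to 17177 genes against 16884, since the filter on low counts was run anew on the libraries left. The part of this in the list changes was not tested. With the longest transcript as length, the YAP1 to WWTR1 ratio was 1.21 in control and 1.06 in knockdown libraries, the CCN1 to CCN2 ratio 3.04 and 3.06, and the shares of TEAD1 53.2% and 52.7%, TEAD3 24.9% and 28.2% and TEAD4 10.3% and 10.8%. The longer motif GGAATGT was in 3.46% of all windows and 3 of the 9 windows. Low counts kept FOXF2, VGLL1, VGLL2, CCN4, CCN5, CCN6 and ANKRD2 out of the test, and TEAD4 has a wide interval.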
